A study of Mus musculus with 7 samples.

Results

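The 9 membrane-bound adenylate cyclases, Adcy1 to Adcy9, were examined in islet RNA-seq of F2 males. They were taken as the rows whose Ensembl identifier carries one of these symbols in GENCODE M21, which found 9 of 9 members among the 21899 genes of the files. Islets are the endocrine cell clusters of the pancreas and hold the insulin-secreting β-cells. Of the 7 samples, 3 are labelled Ctrl and 4 HA, taken here as control-F2 and AE-F2. Values came from replicate 1 of control-F2 (the control library) and replicate 4 of AE-F2 (the AE library). The other 5 were not analysed here. The design asks whether androgen exposure (AE) of the founder mother changed islet expression 2 generations later. In the AE line, pregnant C57BL/6J dams (F0) had been injected with dihydrotestosterone, and in the control line with vehicle. Their F1 sons were mated with unrelated wild-type females, so that the F2 males differed in the treatment of the paternal grandmother and received no injection themselves. Islets were isolated by collagenase digestion, picked by hand and cultured, and how many animals gave each library and their age are not given in the sources used here.

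Adenylate cyclases make cyclic AMP (cAMP) from ATP. All 9 membrane-bound forms are switched on by the stimulatory G protein Gs, and they differ in what else reaches them: Adcy1, Adcy3 and Adcy8 respond to calcium-calmodulin, Adcy2, Adcy4 and Adcy7 to G protein βγ dimers, Adcy5 and Adcy6 are inhibited by calcium, and Adcy9 is set apart by its weak response to forskolin. In β-cells, cAMP made after the incretin hormones GLP-1 and GIP bind their receptors strengthens glucose-stimulated insulin secretion through protein kinase A (PKA) and Epac2, while adrenaline and somatostatin lower it through Gi and Go.

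Promoter windows are shown for Adcy2 and Adcy7, the members with the highest ratios between the libraries, and for Adcy9, the one with the lowest. The windows run from 250 bases before to 50 bases after an annotated start and are RefSeq sequence of GRCm38.p6, which matched 7 of the 9 members with 10 windows in all. CpG dinucleotides, the sites of DNA methylation in mammals, are in capitals. The Adcy2 window lies at chr13:68999492-68999791 on the minus strand. The first of the 3 Adcy7 windows lies at chr8:88282742-88283041 on the plus strand. The Adcy9 window lies at chr16:4420449-4420748 on the minus strand.
Adcy2: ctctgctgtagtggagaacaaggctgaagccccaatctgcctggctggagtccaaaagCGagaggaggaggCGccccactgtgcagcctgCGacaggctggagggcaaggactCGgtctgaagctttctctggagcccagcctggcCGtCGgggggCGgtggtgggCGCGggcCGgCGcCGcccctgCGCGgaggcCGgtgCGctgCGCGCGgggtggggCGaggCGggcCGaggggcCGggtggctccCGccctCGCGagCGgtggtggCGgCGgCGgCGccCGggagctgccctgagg
Adcy7: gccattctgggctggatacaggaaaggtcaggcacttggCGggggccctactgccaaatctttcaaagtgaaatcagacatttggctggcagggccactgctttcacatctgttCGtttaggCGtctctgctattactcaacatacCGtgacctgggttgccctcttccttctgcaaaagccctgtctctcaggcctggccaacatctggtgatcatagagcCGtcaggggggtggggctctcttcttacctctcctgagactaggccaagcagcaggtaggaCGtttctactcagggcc
Adcy9: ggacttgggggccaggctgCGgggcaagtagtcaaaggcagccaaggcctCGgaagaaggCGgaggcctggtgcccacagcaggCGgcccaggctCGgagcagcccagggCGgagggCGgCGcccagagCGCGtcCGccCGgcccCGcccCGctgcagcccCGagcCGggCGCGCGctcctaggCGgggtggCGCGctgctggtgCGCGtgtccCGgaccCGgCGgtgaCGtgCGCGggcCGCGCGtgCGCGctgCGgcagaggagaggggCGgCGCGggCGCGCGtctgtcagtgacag
The Adcy2 window held 32 CpGs, more than 90.5% of all 32851 windows of this length, whose median was 7. The Adcy9 window held 42, more than 97.0% of all windows. The first Adcy7 window held 6 and the other Adcy7 windows 5 and 4, so that the 2 members with the highest ratios had promoters of unlike CpG content. Adcy1 had 37, Adcy5 had 44, Adcy4 had 16 and the Adcy3 windows had 33 and 7. The cAMP response core TGACG, searched on both strands, was in 2 of the 10 windows, 1 of Adcy7 and that of Adcy9, and in 20.8% of all windows. The full site TGACGTCA, which contains the core, was in 0 of the 10 and in 1.79% of all windows. A match describes the letters of the window and is no evidence of binding. DNA methylation of these windows was not analysed here.

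The control library held 16285888 counts and the AE library 21278513. Levels are given as counts and as CPM, the count scaled to a common TMM-adjusted library total, which corrects for depth but not for gene length. Ratios are AE over control on the log2 scale after TMM scaling, and each carries a 95% Clopper-Pearson interval on the split of the gene's counts between the libraries. These intervals, and all others given here, cover counting error only. With 1 library per group there is no replicate check, no test was possible, and each comparison is between these libraries and not between the conditions. Both libraries carried islet hormone transcripts. Ins1 was at 48710 and 51033 CPM (control, then AE) and Gcg, which encodes glucagon, at 16025 and 22009 CPM. In bulk islets, fewer cells of a type and less RNA per cell cannot be told apart.

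Adcy6 and Adcy9 dominated the family in both libraries, and both were slightly lower in the AE library. Adcy2 and Adcy7, at low counts, were higher there by 1.78-fold and 1.84-fold, and 0 of the 9 members were past 2-fold. Among all 13627 genes tested 3.81% were past 2-fold in either direction. The interval lay above equality for 2 of 9 members, Adcy2 and Adcy7, against 13.4% of all genes tested. It lay below equality for 2 of 9 members, Adcy6 and Adcy9, against 13.4% of all genes. All 9 members passed the minimum mean of 10 counts.

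**Figure D1:**
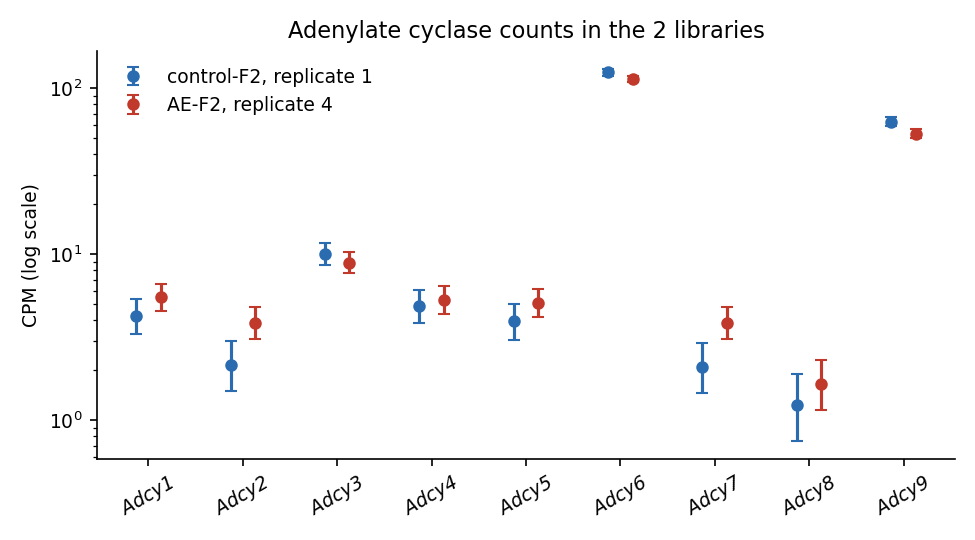
CPM of each adenylate cyclase (log axis) in the control library (blue) and the AE library (red), with points for the single libraries and bars for 95% Poisson intervals. Adcy6 and Adcy9 lie above 50 CPM in both libraries, and the intervals of Adcy2, Adcy6, Adcy7 and Adcy9 do not overlap between the libraries.

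Among the calcium-inhibited forms, Adcy6 was the most abundant cyclase of these islets. It had 2034 counts in the control library and 2409 in the deeper AE library, or 125 and 113 CPM. The log2 ratio was -0.14 (95% interval -0.22 to -0.05), so that the AE level was 0.909 times that of control. Adcy6 stood 1227th among all genes by CPM in the control library and 1365th in the AE library. With the trends of the ratio with GC content and transcript length removed over all genes, its log2 ratio was -0.07 and the interval reached from -0.16 to 0.01, which includes equality. Adcy5, the close paralog of Adcy6 and a form studied for its part in glucose-stimulated insulin secretion, had 64 and 108 counts, or 3.92 and 5.08 CPM. Its log2 ratio of 0.37 had an interval from -0.09 to 0.84, which includes equality at the main settings. With the GC content and length trends removed it was 0.48 (0.02 to 0.95), above equality. Together the calcium-inhibited forms had a log2 ratio of -0.12 (-0.20 to -0.03), and Adcy6 held most of these counts.

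Adcy9 was next in abundance. It had 1024 counts in the control library and 1135 in the AE library, or 62.8 and 53.4 CPM. The log2 ratio was -0.23 (-0.36 to -0.11), a level 0.851 times that of control, and 5.13% of the genes averaging 1000 counts or more had a lower ratio. For Adcy6 the same share was 14.9%. Both members of this level had an interval below equality (2 of 2), as had 24.9% of all genes averaging 1000 counts or more. The Adcy9 count was 50.3% of the Adcy6 count in the control library and 47.1% in the AE library.

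Among the forms that respond to βγ dimers, 2 of 3 were higher in the AE library beyond counting error, and of all genes at their level, a mean under 100 counts, 17.5% were. Adcy7 had 34 counts in the control library and 82 in the AE library, or 2.08 and 3.86 CPM, with a log2 ratio of 0.88 (0.29 to 1.51). Adcy2 had 35 and 82 counts, or 2.15 and 3.86 CPM, with a log2 ratio of 0.83 (0.26 to 1.46). The intervals on the fold ran from 1.23 to 2.85 for Adcy7 and from 1.20 to 2.75 for Adcy2, so that both include 2-fold. Adcy4 had 79 and 113 counts, or 4.84 and 5.32 CPM, and its interval of -0.29 to 0.57 around 0.13 included equality. Summed, these 3 forms had 148 and 277 counts and a log2 ratio of 0.52 (0.23 to 0.82), where the median of all genes at their level was 0.15. A picture in the study's paper shows Adcy2 in a list of insulin secretion genes drawn from its own RNA-seq and sperm methylation data. That list rests on these samples, so the Adcy2 ratio is not independent evidence of its direction.

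The calcium-calmodulin forms did not differ beyond counting error at the main settings. Adcy3, the olfactory cyclase that also marks primary cilia, had 164 and 189 counts, or 10.1 and 8.89 CPM, with a log2 ratio of -0.18 (-0.49 to 0.13). Its deposited values were not whole, at 163.59 and 188.77. In GENCODE M21, 22.1% of its exonic bases overlap exons of Cenpo on the opposite strand, so that reads of the gene pair may have been divided and the Adcy3 level is uncertain. Adcy1, best known from neurons, had 69 and 117 counts, or 4.23 and 5.51 CPM, with a log2 ratio of 0.38 (-0.06 to 0.83). Adcy8, a form studied in β-cells for coupling calcium entry to cAMP, was the lowest member by counts, with 20 and 35, or 1.23 and 1.65 CPM. At such counts its interval, -0.41 to 1.30 around 0.41, spans a lower level as well as one past 2-fold. Summed, the 3 forms had 253 and 341 counts and a log2 ratio of 0.05 (-0.19 to 0.29). With the GC content and length trends removed, the log2 ratios of Adcy1 and Adcy5 were 0.46 (0.02 to 0.91) and 0.48 (0.02 to 0.95), which lie above equality.

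**Figure D2:**
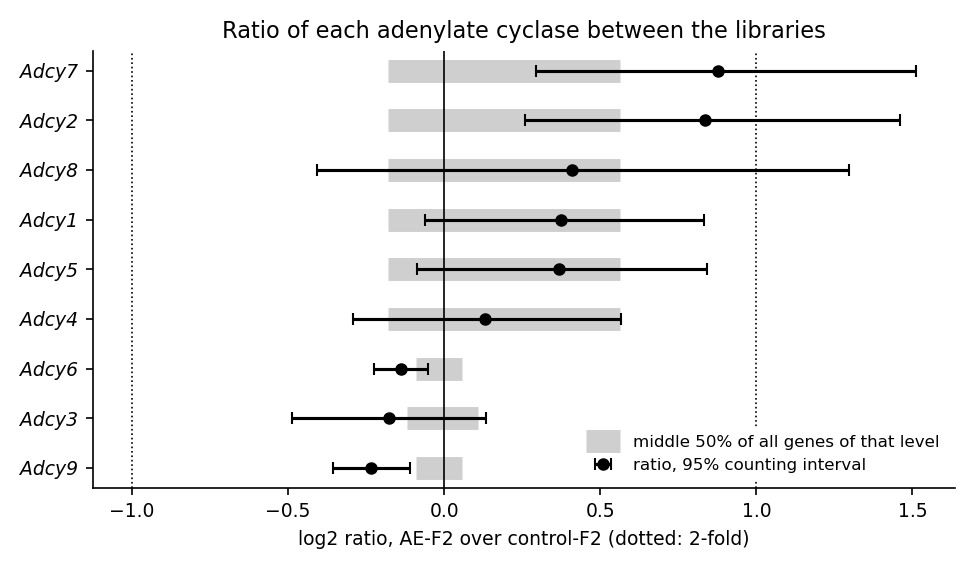
Log2 ratio of AE over control for each adenylate cyclase (points) with its 95% Clopper-Pearson interval (bars), and the middle 50% of the ratios of all genes of the same level (grey). Adcy7 and Adcy2 lie above the grey band and Adcy3, Adcy6 and Adcy9 below it, and no point reaches the dotted 2-fold lines.

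The direction of a member went with its level, and so did that of other genes. The 6 members with a mean under 100 counts (Adcy1, Adcy2, Adcy4, Adcy5, Adcy7 and Adcy8) were all higher in the AE library, with a median log2 ratio of 0.39. Of all 3087 genes tested at this level, 61.5% were higher and the median was 0.15, with the middle 50% between -0.18 and 0.56. An interval above equality was found for 2 of these 6 members and for 17.5% of all genes at this level. Adcy7 exceeded 84.8% and Adcy2 83.8% of the genes at this level, Adcy8, Adcy1 and Adcy5 between 64.9% and 67.7%, and Adcy4 48.4%. The 3 members with at least 100 counts (Adcy3, Adcy6 and Adcy9) were all lower, and among genes with a mean of 100 to 1000 counts 48.1% were higher, against 43.7% of genes with at least 1000.

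**Figure D3:**
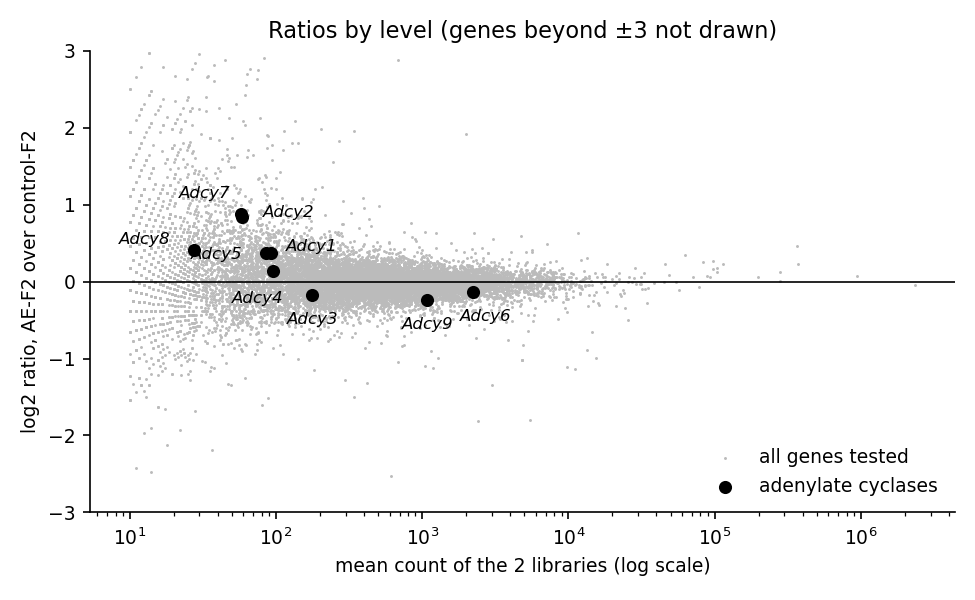
Log2 ratio of AE over control against the mean count of both libraries (log axis) for all genes tested (grey) and the 9 adenylate cyclases (black). The members under 100 counts lie above 0 and the others below it, and the spread of the grey points widens as counts fall.

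The makeup of the family moved in the same way, and it needs no scaling between libraries. Adcy6 and Adcy9 together held 86.8% of the family's counts in the control library (Wilson interval 85.6 to 87.9) and 83.0% in the AE library (81.8 to 84.1). The 6 members under 100 counts held 8.54% (7.67 to 9.51) and 12.6% (11.6 to 13.6), a grouping chosen after the values were seen. The βγ-responsive forms went from 4.20% to 6.49% of the family's counts. The whole family had 3523 and 4270 counts, or 216 and 201 CPM, with a log2 ratio of -0.10 (-0.17 to -0.04). Without Adcy6 and Adcy9 the summed ratio turned to 0.26 (0.09 to 0.43), and that of these genes alone was -0.17 (-0.24 to -0.10).

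Levels of different members were compared per kilobase of the longest coding transcript, since their transcripts differ from 3501 bases for Adcy4 to 12259 for Adcy1. On this scale Adcy6 had 20.7 CPM per kilobase in the control library and 18.8 in the AE library, and Adcy9 had 12.6 and 10.7. Adcy3 followed with 2.03 and 1.79, and Adcy4 with 1.38 and 1.52. On transcript length the remaining 5 lay below 1 in both libraries, and Adcy8 was the lowest with 0.175 and 0.236. The control-F2 order after Adcy4 was Adcy5, Adcy2, Adcy7, Adcy1 and Adcy8, where each neighbour overlapped the next within counting error. In the AE library Adcy2, at 0.916 CPM per kilobase, stood above Adcy5, at 0.725, but their intervals overlapped. The neighbours Adcy3 and Adcy4, Adcy5 and Adcy7, and Adcy7 and Adcy1 overlapped there as well. Adcy1, the fifth member by CPM in the control library and the fourth in the AE library, had 0.345 and 0.449 CPM per kilobase, the lowest but for Adcy8. This order depends on the length used: per kilobase of coding sequence Adcy1 had 1.26 and 1.64, above Adcy5 with 1.04 and 1.34, and it stood just below Adcy4 in both libraries, while Adcy6 and Adcy9 stayed at the top. Adcy6 and Adcy9 together held 86.1% and 82.4% of the family per length.

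**Figure D4:**
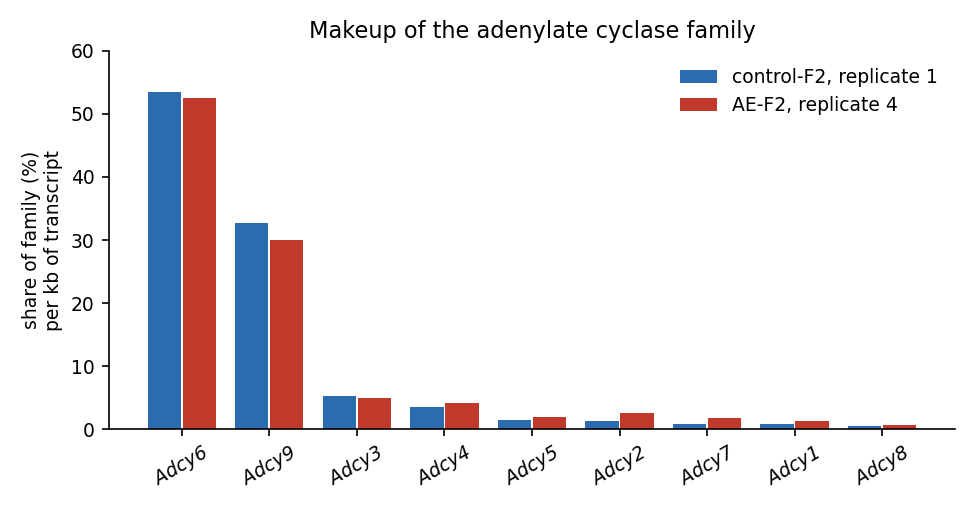
Share of each adenylate cyclase in the family total (%), on CPM per kilobase of the longest coding transcript, in the control library (blue) and the AE library (red), with single libraries and no error bars. Adcy6 and Adcy9 together hold 86.1% and 82.4%.

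Markers of several other cell types differed between the libraries, and their part in the ratios of Adcy2, Adcy7 and the other members was not tested. Of all genes tested, 13.4% lay above equality and 13.4% below. Among those with a mean under 100 counts 17.5% lay above, and among those averaging 1000 counts or more 24.9% lay below. Immune markers summed to 158 CPM in the control library and 253 in the AE library, with 3 of 7 above equality. Among them Cd74, of the antigen presentation machinery, had 2098 and 4024 counts and Lyz2, lysozyme of myeloid cells, 112 and 571. The other myeloid genes of the list, Csf1r, Adgre1, Cd68 and Itgam, had intervals that include equality. Their log2 ratios ran from -0.11 for Cd68 to 0.64 for Itgam. B cell markers summed to 11.4 and 32.2 CPM, with 4 of 4 above equality, and Cd79a of the B cell receptor had 178 and 391 counts and Ms4a1, which encodes CD20, 3 and 150. The T cell markers Cd3e and Cd3g had 0 counts each in the control library, below the limit of 3 counts used here, and 10 each in the AE library. Mesenchyme markers summed to 252 and 309 CPM with 7 of 9 above equality and 1 below, the smooth muscle actin gene Acta2. The most abundant of them, the pericyte marker Rgs5, had a log2 ratio of 0.08 (0.01 to 0.15) and the collagen gene Col3a1 had 282 and 727 counts. Acinar markers were lower in the AE library, at 1921 and 1416 CPM, in 7 of 7 genes tested. Endothelial markers summed to 617 and 611 CPM, Schwann cell markers to 14.2 and 15.8 CPM with 1 of 4 tested above equality (Cdh19), and duct markers to 39.8 and 40.6 CPM with 1 of 3 tested above equality (Krt19). Acta2, Cdh19, Krt19, Csf1r, Adgre1, Cd68 and Itgam were named after their values were seen. Of the endocrine lists, the α-cell markers had a summed log2 ratio of 0.46, carried by Gcg, and the δ- and PP-cell sums lay within 0.02 of 0. The β-cell sum did too, where the abundant Ins1, Ins2 and Iapp weigh most, but 8 of the 10 β-cell markers lay below equality and 2 above, with a median log2 ratio of -0.10. All 10 average over 1000 counts, where intervals are narrow and 24.9% of all genes lay below equality.

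The rest of the cAMP pathway was described with 14 lists, of which 133 genes were tested. One of the lists holds the other nucleotide cyclases, most of which make cGMP. Of the 133 genes tested 57 were higher and 76 lower, with a median log2 ratio of -0.05. The interval lay above equality for 12 and below it for 32, beside 13.4% of all genes in each direction. Among all genes averaging 1000 counts or more, a level that many of the listed genes reach, 24.9% lay below equality. Past 2-fold were 7 of the 133, against 3.81% of all genes tested.

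Upstream of the cyclases, 17 receptors coupled to Gs were tested, of which 7 were higher and 10 lower (median -0.10), with 2 above equality (Adcyap1r1 and Gpr119) and 4 below (Glp1r, Vipr1, Gcgr and Mc5r). Glp1r, the GLP-1 receptor, had 11239 and 13670 counts and a log2 ratio of -0.10 (-0.14 to -0.06). Gipr, the GIP receptor, had -0.10 (-0.20 to 0.00), and Gcgr, the glucagon receptor, -0.19 (-0.37 to -0.01). Of 22 receptors coupled to Gi and Go, 10 were higher and 12 lower (median -0.04), with 2 above equality (Cnr1 and Cnr2) and 4 below (Adra2a, Sstr3, Galr1 and Ptger3). Of these receptors Adcyap1r1, Gpr119, Mc5r, Cnr1, Cnr2 and Ptger3 were named after their values were seen. Adra2a, through which adrenaline inhibits cAMP formation, had 3687 and 3542 counts and a log2 ratio of -0.44 (-0.51 to -0.37). The Gs α subunit Gnas had 22103 and 30134 counts and a log2 ratio of 0.07 (0.04 to 0.09). Gnal, the other gene of the Gs type, went the opposite way, with 64 and 54 counts and a log2 ratio of -0.62 (-1.18 to -0.08). The inhibitory subunit genes Gnao1 and Gnai2 had -0.15 (-0.19 to -0.10) and -0.09 (-0.13 to -0.04), and of the 5 genes of that list 3 lay below equality (Gnao1, Gnai2 and Gnaz) and 0 above. Of 12 G protein β and γ genes, the partners of Adcy2, Adcy4 and Adcy7, 1 lay above equality and 0 below, and the most abundant, Gng12, had 0.07 (0.03 to 0.10).

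Of the regulators that act on the cyclases directly, 10 calcium regulators were tested, with 2 above equality and 1 below. Calm2, a calmodulin gene, had a log2 ratio of 0.18 (0.11 to 0.26). Of 8 cyclase partners tested, 8 were lower, 4 of them beyond counting error, with a median of -0.21. These 4 (Rgs2, Cap1, Akap9 and Ric8b) average over 1000 counts, a level at which 24.9% of all genes lay below equality. Rgs2, which can bind cyclases and limit their activity, had 4335 and 3951 counts and a log2 ratio of -0.52 (-0.58 to -0.45). Ric8b, a chaperone of the Gs α subunit, had -0.19 (-0.29 to -0.08), and the anchoring protein gene Akap9 had -0.17 (-0.25 to -0.09). The 5 protein kinase C genes had a median of -0.05, with 1 below equality.

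Downstream, 15 phosphodiesterases, which break down cAMP or cGMP, had a median of 0.00 with 2 above and 1 below equality. Pde3b, the most abundant of them, had a log2 ratio of 0.01 (-0.06 to 0.08), and Pde4b 0.25 (0.09 to 0.40). Among 9 PKA genes the catalytic subunit gene Prkacb had -0.17 (-0.20 to -0.14) and the regulatory subunit gene Prkar1a 0.01 (-0.02 to 0.05). Rapgef4, which encodes Epac2, had -0.01 (-0.09 to 0.06). Of 8 genes for CREB, the cAMP response factor, and its cofactors 7 were lower, with a median of -0.07, and Crebbp had -0.30 (-0.43 to -0.17). Of the 14 pathway lists, the one with its median farthest from 0 was that of the 9 CREB-responsive genes tested, of which 8 were lower, 7 beyond counting error, with a median of -0.99. Below equality lay 13.4% of all genes tested and 24.9% of those averaging 1000 counts or more. Fos, Dusp1, Irs2, Nr4a1 and Per1 are of that level. Fos had 18615 and 12218 counts and a log2 ratio of -0.99 (-1.02 to -0.96). Dusp1, Nr4a1 and Sik1 were past 2-fold, at -1.34, -1.12 and -1.15, beside 3.81% of all genes in either direction. Such low ratios were not confined to this list. Outside it Fosb had -1.80, Dnajb1 -1.82 and Klf6 -1.09, all named after their values were seen. The CREB-responsive genes also respond to signals other than cAMP, and cAMP itself was not measured in these libraries.

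**Figure D5:**
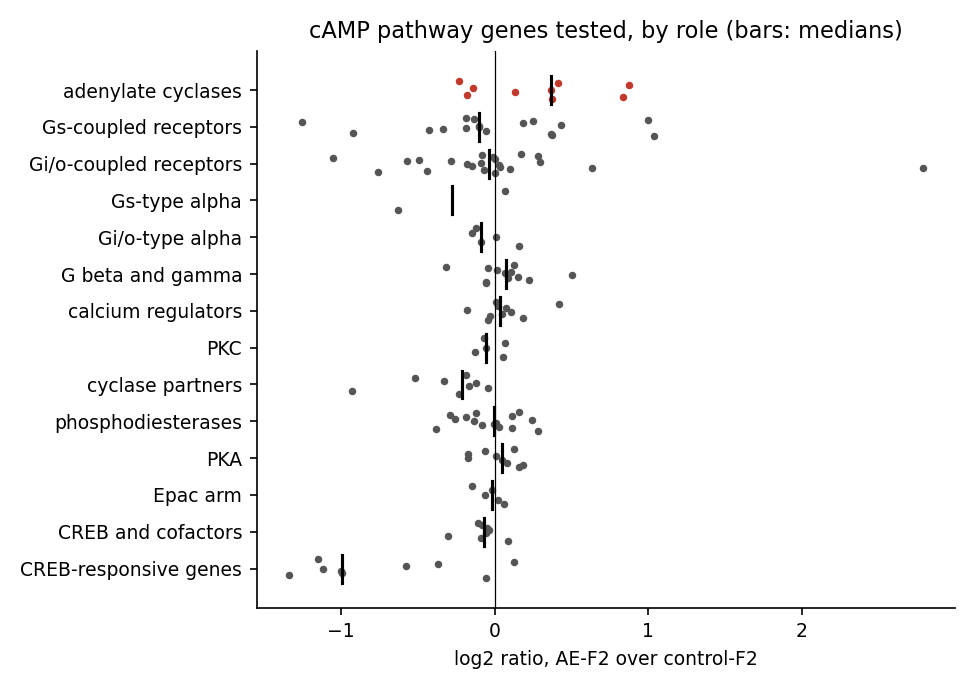
Log2 ratio of AE over control for each cAMP pathway gene tested, in rows by role, with the adenylate cyclases in red and a black bar at each median. The cyclases spread from -0.23 to 0.88, most other lists centre near 0, and the CREB-responsive genes have a median of -0.99.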

How the data were processed

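Islet mRNA of F2 males was enriched with Oligo (dT) beads and sequenced. Estimated counts for each gene were deposited by the authors in 1 file a library, not scaled for depth or length; 8.56% and 9.28% of the values were not whole. The methods name HISAT2, and the submitters' processing notes list Bowtie2, RSEM and DESeq2 without roles. The counting tool, genome build, annotation and strand setting are not given in the sources used here, and reads divided between overlapping or similar genes can shift a level.

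Counts were rounded to whole numbers and scaled with TMM factors (edgeR 4.0.16, R 4.3.3). A gene was kept if its mean reached 10 counts, and 0.5 counts were added before the log2 ratio. Clopper-Pearson, Poisson and Wilson intervals (95%) came from scipy 1.17.1 in Python 3.11.15, and GC content and length trends from lowess in statsmodels 0.14.6. A ratio is said to lie above or below equality where its interval excludes 0. PCR copies are not independent molecules. At equal CPM the deeper AE-F2 library is the more precise. No model was fitted to 1 library a group. Symbols matched 21806 of 21899 identifiers in GENCODE M21, whose transcripts gave lengths and exon overlaps. The steps were tested on simulated data.

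All members are named, with up to 4 of the most abundant genes of each pathway list, any past 2-fold with a mean of at least 100 counts, and the 2 most abundant markers of a list; not all of these are printed. The members and lists were chosen with earlier results of these data known. Alternatives were other scalings (median-of-ratios factors of DESeq2 1.42.0 among them), minimum counts, a pseudocount of 5, thinning, other thresholds and other lengths. Other samples of the series were not analysed here.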

Additional observations from a re-analysis of the deposited data

How the results depend on the processing

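No paired analysis was possible because each group had 1 library, and no replicate could be left out. The labels give no pairing between the libraries (control-F2 replicate 1, AE-F2 replicate 4). Of 80 log2 ratios of single members under the alternatives, 0 reversed. Adcy8, with the fewest counts, is lost at a minimum mean of 50 counts. With a fold threshold of 1.5, 2 members (Adcy2 and Adcy7) passed in place of 0. Removing the GC content and length trends, an alternative chosen after seeing the data, gave 4 members above equality in place of 2 and 1 below in place of 2: Adcy1 and Adcy5 were gained and Adcy6 was lost, and the cause was not tested. The family sum without Adcy6 and Adcy9, also chosen after seeing the data, had a log2 ratio of 0.26 in place of -0.10, since those genes hold most of the counts. Across 5 scalings, the main one included, the ratios shifted together by at most 0.02 on the log2 scale. The counts of members past 2-fold, above and below equality, and the per-length shares of Adcy6 and Adcy9 stayed near the main value under the other alternatives. The intervals of Adcy1, Adcy3, Adcy4, Adcy5 and Adcy8 include equality at this depth and the main settings.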

Other observations

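The other nucleotide cyclases, which make cGMP or are soluble, were described beside the family. Of 7 genes tested 3 were higher and 4 lower, with a median log2 ratio of -0.01. Gucy2c, the guanylate cyclase receptor of the intestinal peptides guanylin and uroguanylin, had 46.5 CPM in the control library and 56.9 in the AE library, with a log2 ratio of 0.29 (95% counting interval 0.16 to 0.42). Npr1, a natriuretic peptide receptor with cyclase activity, had 32.4 and 25.4 CPM and a log2 ratio of -0.35 (-0.53 to -0.18). Npr2 had -0.11 (-0.29 to 0.07) and the soluble guanylate cyclase subunit gene Gucy1b1 -0.01 (-0.30 to 0.27). Adcy10, the soluble adenylate cyclase, had 0 counts in the control library and 1 in the AE library, at or under the limit of 3 counts, so no ratio is given.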
